A study of Mus musculus with 17 samples.

Results

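The effect of the Sf3b1 lesion on B-cell gene expression was measured over both states of Atm. The 6 libraries that carry the Sf3b1 lesion were set against the 9 that do not, with the Atm lesion as an additive term, so that 15 of the 17 libraries of the series entered the comparison. The series holds poly(A) RNA sequencing of B cells, taken from C57BL/6 animals that the sample titles call old. The lesions are a B cell-restricted Sf3b1 mutation and a deletion of Atm, per the series title. The libraries with the Sf3b1 lesion are Sf3b1 MT (n = 3, Sf3b1 mutation with Atm intact) and DM (n = 3, double mutant with both lesions). The libraries without it are WT (n = 3, wild type) and Atm MT (n = 6, Atm deletion with Sf3b1 intact). The remaining 2 libraries, DM-CLL, carry both lesions and are labelled as chronic lymphocytic leukaemia (CLL), and they were not part of the fit. The labels give neither the mutated residue, the driver of the B-cell restriction, the organ of origin nor the deleted stretch of Atm. Nor do they state that replicates come from separate animals, so p-values measure only the spread between these samples, which may in part be technical.

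SF3B1 is the largest subunit of SF3b, the part of the U2 small nuclear ribonucleoprotein that contacts the branch point of an intron before splicing. Hotspot mutations in human SF3B1 recur in CLL and myelodysplastic syndromes, where they let the spliceosome use cryptic 3′ splice sites upstream of the normal ones, and many of the resulting transcripts are removed by nonsense-mediated decay. ATM is the kinase that signals DNA double-strand breaks and is itself lost in a share of human CLL. Gene-level values do not show which splice sites were used, so the measurements below are of total transcript level per gene.

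Expression was deposited as TPM, a transcript share scaled for gene length and library total. Differences are given as the fitted change in log2(TPM + 1), with its standard error (SE), for libraries with the Sf3b1 lesion minus libraries without. The text writes rose or fell only for genes with an adjusted p under 0.05 in limma's moderated test, with Benjamini-Hochberg adjustment over the 9898 genes tested. Gene lists and their members were chosen with earlier results of these data known, so the shares of members that fell or rose may in part be set by that choice. Adding 1 before the logarithm understates the change of low genes. Read depth is unknown, so no counting error can be given for single values.

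The libraries themselves differed in ways that cross the groups. B-cell markers were high everywhere, with a mean log2 level over 12 genes of 6.67 to 7.79 in the 6 libraries with the Sf3b1 lesion and 7.29 to 8.09 in the 9 without. The erythroid marker mean ran from 2.02 to 5.97 with the lesion and from 1.28 to 3.93 without, and DM replicate 3 had both the highest erythroid and the lowest B-cell mean of the 15. Atm MT replicates 1 to 4 had macrophage marker means of 4.56 to 5.40, above the other 11 libraries. Xist, which coats an inactive X, reached no more than 0.03 TPM in the 3 Sf3b1 MT libraries, against 38.6, 47.1 and 0.08 TPM in WT, 27.5 TPM in DM replicate 3 and at most 0.02 TPM in the other DM libraries. In the 6 Atm MT libraries Xist was 37.8, 52.8 and 29.1 TPM in replicates 2, 4 and 1 and at most 0.06 TPM in replicates 3, 5 and 6.

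Most genes that passed were lower with the Sf3b1 lesion. Of the 9898 genes tested, 1142 fell (11.5%) and 98 rose (0.990%), which makes 1240 that passed (12.5%), and 2981 (30.1%) had an unadjusted p under 0.05. The median fall was 0.61 on the log2 scale, and the median over all genes tested was −0.16, with 75.9% of all genes below 0. The whole distribution was therefore shifted downward, and part of each fall is shared with genes in general. After median-ratio scaling of the libraries, which set the median of all genes to 0.01, 234 genes fell (2.36%) and 141 rose (1.42%), so that rises made up 37.6% of the genes that passed against 7.90% on the deposited scale. Of those 375 genes, 288 had also passed on the deposited scale. No reads are at hand to say which scale is nearer to the RNA content of a cell, and in bulk RNA fewer cells of a type and less RNA per cell cannot be told apart.

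Complete separation of the libraries was much rarer than passing. All 6 libraries with the Sf3b1 lesion lay below all 9 without it for 154 genes (1.56% of those tested), and 150 of these fell. They lay above all 9 for 4 genes (0.0404%), all of which rose. Within the Atm states, the Sf3b1 MT libraries were all below WT for 17.1% of genes and all above for 2.40%, and the DM libraries were all below Atm MT for 9.50% and all above for 2.21%. These 4 were singled out for that property: Mmp14, a membrane-bound matrix metalloproteinase (1.5 ± 0.712 TPM with the lesion, 0.422 ± 0.198 without, SD), Nmnat3, an enzyme of NAD synthesis (4.42 ± 1.16 and 2.31 ± 0.369), Qsox1, a sulfhydryl oxidase (6.09 ± 0.683 and 4.29 ± 0.655), and Lrig1, a regulator of growth-factor receptors (0.637 ± 0.374 and 0.179 ± 0.0968; n = 6 and 9 in each case). Their log2 differences were 0.43 to 0.79, with adjusted p of 0.0136, 0.0138, 0.0266 and 0.0337 in that order.

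The 2 Atm states can be compared without any shared library, since Sf3b1 MT is set against WT and DM against Atm MT. Across the 9898 genes the 2 Sf3b1 differences had a Pearson r of 0.36 and a Spearman rho of 0.42, as a description over genes that are not independent. Of the 1240 genes that passed the additive fit, 1237 had the same sign in both states, including all 1142 falls and 95 of the 98 rises. That count is partly set by the fit itself, which averages the 2 states. A selection that does not use the second state gave the following. Of the 200 genes with the smallest p in Sf3b1 MT against WT, 189 were lower, and 166 of these (87.8%) were also lower in DM against Atm MT, where 76.4% of all genes were lower. Of the 200 with the smallest p in DM against Atm MT, 140 were lower, and 134 of these (95.7%) were also lower in Sf3b1 MT against WT, where 67.9% of all genes were lower. Of the other 60, which were higher, 39 (65.0%) were also higher in Sf3b1 MT, against 32.1% of all genes.

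The size of the change differed between the states for the rises more than for the falls. Genes that fell had a median log2 difference of −0.53 without and −0.68 with the Atm lesion, while genes that rose had medians of 0.48 and 1.31. For single genes no dependence on the Atm state was detected: the interaction test, DM − Sf3b1 MT − Atm MT + WT, gave 0 genes at an adjusted p of 0.05 by limma and 546 (5.52%) at an unadjusted p under 0.05. The 3 genes with the smallest interaction p were Fzd6, a Wnt receptor (interaction 2.14 on the log2 scale, adjusted p = 0.365), Cst7, a cysteine protease inhibitor (1.59, adjusted p = 0.378), and Hoxa7, a homeobox factor (1.37, adjusted p = 0.483).

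**Figure D1:**
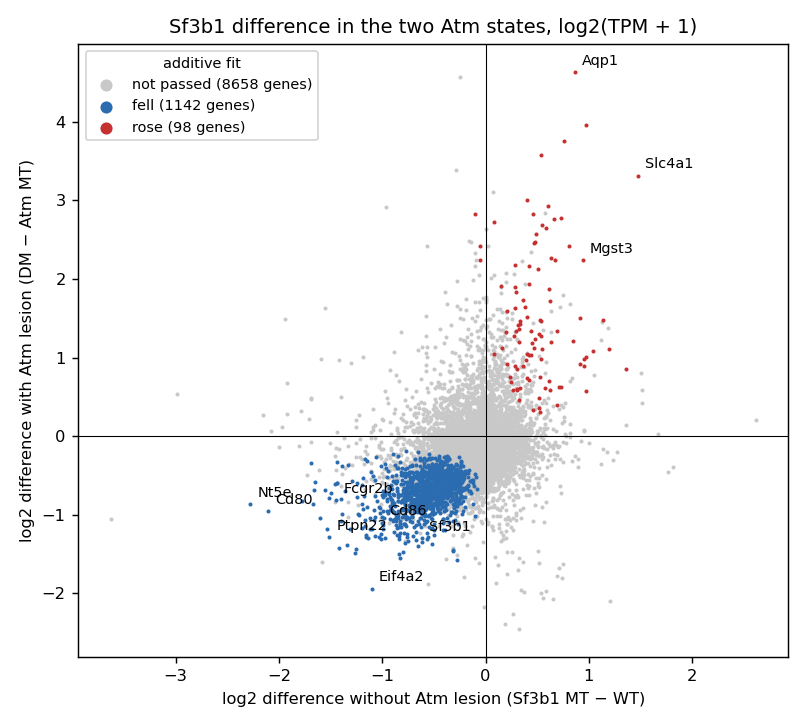
Each point is 1 of the 9898 genes tested, with the log2(TPM + 1) difference of Sf3b1 MT minus WT on the horizontal axis and of DM minus Atm MT on the vertical axis. The 1142 genes that fell in the additive fit lie in the lower left quadrant, and the 98 that rose stretch upward, with larger differences with the Atm lesion (median 1.31) than without (0.48).

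Sf3b1 itself was among the genes that fell. It measured 88.8, 50.2 and 70.6 TPM in Sf3b1 MT replicates 1 to 3 and 73.9, 39.8 and 58.7 TPM in DM replicates 1, 3 and 6. In WT it measured 106, 113 and 96.1 TPM, and in Atm MT 112 to 191 TPM with a median of 130.2. All 6 libraries with the lesion in the fit were below all 9 without. The 2 DM-CLL libraries, which carry both lesions and were outside the fit, measured 140 and 138 TPM, within the range of Atm MT. The difference was −1.01 ± 0.18 (adjusted p = 0.0101), made up of −0.62 without the Atm lesion and −1.30 with it, and the test of that gap did not pass (interaction adjusted p = 0.896). The call held in each of the 15 omissions of a single library and in 12 of 16 alternative settings. It was lost with the erythroid marker mean as a covariate and without Atm MT replicates 1 to 4, on the deposited scale and after median-ratio scaling. Of the other 8 tested subunits of SF3b and SF3a none passed (Sf3a2 −0.21 ± 0.10, adjusted p = 0.168; Sf3a3 −0.15 ± 0.11, adjusted p = 0.383), and the median over all 9 subunits was −0.11, or 0.09 after median-ratio scaling. Atm measured 4.34 ± 1.67 TPM with the Sf3b1 lesion and 7.55 ± 3.40 without (SD, n = 6 and 9), a difference of −0.70 ± 0.23 that did not pass (adjusted p = 0.0558). Atm measured 7.57, 8.87 and 6.48 TPM in WT and 4.24 to 15.6 TPM in Atm MT with a median of 5.78, so 4 of the 6 Atm MT libraries were below all 3 WT and replicate 6 was above them. With the deleted stretch unknown, its level is no check of the labels.

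Genes beside the targeted loci were counted separately. Of 37 other tested genes within 5 Mb of Sf3b1 (chromosome 1, 54985169 to 55027481, GRCm38), 4 fell (10.8%), and of 67 within 5 Mb of Atm (chromosome 9, 53439149 to 53536740) 11 fell (16.4%), against 11.5% of all genes.

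SR proteins and heterogeneous nuclear ribonucleoproteins (hnRNPs) bind exonic and intronic sequence and steer splice-site choice. Their list also holds other splicing genes, such as Ddx5, Clk4, Luc7l2 and Luc7l3. Of its 34 tested members, 14 fell and 0 rose, and 33 were below 0. The median was −0.47, or −0.27 after median-ratio scaling, when 2 fell and 1 rose. Over all genes 11.5% fell and the median was −0.16. With the GC trend of each library removed 2 members fell and the list median was −0.18, and with the erythroid marker mean as a covariate 0 fell. Ddx5, an RNA helicase of splicing and transcription, had the smallest p. It measured 468, 332 and 409.6 TPM in Sf3b1 MT and 430.2, 234 and 381 TPM in DM, against 791, 842 and 589 TPM in WT and 605 to 853 TPM in Atm MT. No Sf3b1 MT or DM library reached any library without the lesion, and the difference was −0.98 ± 0.14 (adjusted p = 0.00708). The DM-CLL libraries, outside the fit, measured 759 and 808 TPM. Srsf5, an SR protein, was likewise separated, at 126, 76.5 and 102 TPM in Sf3b1 MT and 138, 65.7 and 107 TPM in DM against 191, 188 and 169 TPM in WT and 174 to 262 TPM in Atm MT (−0.97 ± 0.15, adjusted p = 0.00829). Both calls held in all 15 omissions. Clk4, a kinase that phosphorylates SR proteins, fell from 38.5 ± 11.1 to 17.6 ± 5.96 TPM (−1.09 ± 0.24, adjusted p = 0.0148), a call lost without DM replicate 3 (−0.95, adjusted p = 0.0568). The other members that fell were Luc7l2 and Luc7l3 (U1-associated factors), Srsf2, Srsf6, Srsf7 and Srsf11, Hnrnpu, Hnrnpa1, Hnrnph1 and Hnrnpm, and Srrm2, with differences of −0.41 to −1.22. The number of members that fell was 8 without Sf3b1 MT replicate 2, 6 without DM replicate 1 and 3 without DM replicate 3.

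Factors that act with SF3b at the branch point and the 3′ splice site fell in 6 of 15 tested cases, with a median of −0.23 (−0.04 after median-ratio scaling, when 1 fell and 1 rose). Over all genes 11.5% fell and the median was −0.16. With the GC trend removed, or with the erythroid covariate, 0 fell. Htatsf1, a U2-associated protein, fell from 19.0 ± 3.95 to 11.1 ± 2.65 TPM (−0.71 ± 0.15, adjusted p = 0.0144), with no overlap between the sides. Ddx42, a helicase that binds SF3b, fell from 27.3 ± 5.24 to 17.9 ± 3.46 TPM (−0.57 ± 0.14, adjusted p = 0.0230), also without overlap. Rbm17, Dhx15, Zrsr2 and Ddx46 fell by less, with differences of −0.39 to −0.54. Single libraries decided most of this count: omitting WT replicate 1 or WT replicate 2 left 2, omitting Sf3b1 MT replicate 2 or DM replicate 1 left 1, omitting Atm MT replicate 4 left 3, and omitting DM replicate 3 left 0. Without DM replicate 3, Htatsf1 was at −0.66 (adjusted p = 0.0544).

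Of 16 tested genes of nonsense-mediated decay and the exon junction complex, 4 fell, among them Upf3b (15.9 ± 5.69 to 7.23 ± 2.45 TPM, −0.98 ± 0.22, adjusted p = 0.0161), Smg1 and Upf2. The median was −0.21, or −0.01 after scaling, when 1 fell. Over all genes 11.5% fell and the median was −0.16. Of the decay genes, omitting DM replicate 3 left 0, omitting Atm MT replicate 2 left 2, and omitting any one of WT replicates 1 and 2, Sf3b1 MT replicate 2, Atm MT replicate 4 and DM replicate 1 left 1. Mouse orthologues of genes known as splice targets of mutant human SF3B1 fell in 5 of 21 cases, with a median of −0.31 (−0.13 after scaling, when 1 fell). They included Ankhd1 (17.9 ± 3.50 to 11.0 ± 2.34 TPM, −0.69 ± 0.14, adjusted p = 0.0138), Klhl9 (10.4 ± 3.14 to 5.14 ± 0.895, −0.83 ± 0.18, adjusted p = 0.0140), Brd9, a subunit of a chromatin-remodelling complex, and Gcc2. Ankhd1 passed in all 15 omissions. The count of the list was 1 without DM replicate 3, 2 without WT replicates 1 or 2, Sf3b1 MT replicate 2, Atm MT replicate 4 or DM replicate 1, and 3 without Sf3b1 MT replicate 3 or Atm MT replicates 2 or 6. The orthologues were chosen for what is known in human cells, and whether the mouse genes share the cryptic splice sites was not tested.

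**Figure D2:**
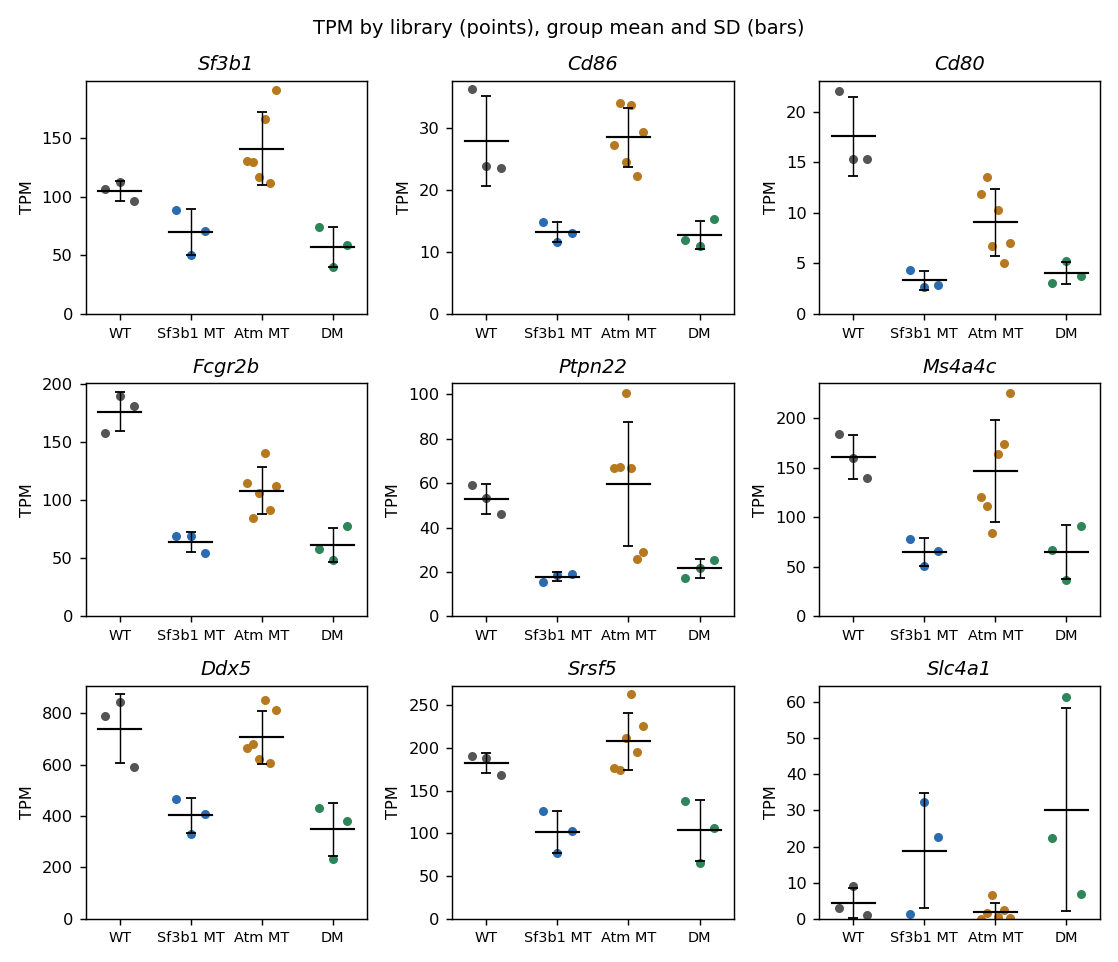
TPM per library (points) with the group mean and SD (bars) for 9 genes in the WT, Sf3b1 MT and DM groups (n = 3 each) and in Atm MT (n = 6). For Sf3b1, Cd86, Fcgr2b, Ptpn22, Ddx5 and Srsf5 every Sf3b1 MT and DM library lies below every WT and Atm MT library. Cd80 and Ms4a4c overlap slightly, and Slc4a1 spreads widely within both Sf3b1 MT and DM. The DM-CLL libraries are not shown.

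Among B-cell genes the list of age-associated and memory cells, which holds the costimulatory ligands, had the largest share of falls. Of 16 tested genes, 8 fell and 0 rose, against 11.5% and 0.990% of all genes. Since the lists were chosen with earlier results of these data known, this rank may in part be set by that choice. Cd86, a ligand of CD28 and CTLA-4 on T cells, measured 14.9, 11.6 and 13.1 TPM in Sf3b1 MT and 11.9, 11.0 and 15.4 TPM in DM, against 36.4, 23.9 and 23.6 TPM in WT and 22.3 to 34.0 TPM in Atm MT (median 28.3). Both groups with the lesion were at about the same level, and none of their libraries reached a control library. The difference was −1.06 ± 0.13 (adjusted p = 0.00192), and it passed in 14 of 16 alternative settings and in all 15 omissions. Cd80, the related ligand, measured 4.39, 2.70 and 2.87 TPM in Sf3b1 MT and 3.09, 5.28 and 3.78 TPM in DM, against 22.1, 15.4 and 15.3 TPM in WT and 5.01 to 13.6 TPM in Atm MT. Atm MT was itself below WT for Cd80, so the difference was −2.11 without and −0.95 with the Atm lesion (−1.45 ± 0.24 in the additive fit, adjusted p = 0.00829). Nt5e, the ectonucleotidase CD73 that makes adenosine, measured 2.42, 2.82 and 2.59 TPM in Sf3b1 MT and 0.920, 4.41 and 1.76 TPM in DM. It measured 25.6, 16.9 and 10.3 TPM in WT and 2.27 to 9.76 TPM in Atm MT, and the difference was −1.47 ± 0.31 (adjusted p = 0.0141).

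Of the same list, Fcrl5, an Fc receptor-like protein of B cells, fell from 54.5 ± 16.7 to 27.1 ± 5.08 TPM (−1.0 ± 0.18, adjusted p = 0.0102). Tbx21, the transcription factor T-bet, stood at 20.0 to 22.4 TPM in the 3 WT libraries and 4.58 to 7.74 TPM in Sf3b1 MT, but at 3.44 to 14.1 TPM in Atm MT and 2.64 to 5.54 TPM in DM (−0.92 ± 0.28, adjusted p = 0.0428). Zbtb20, Sox5 and Pdcd1lg2 (the PD-1 ligand PD-L2) also fell, by 1.04, 0.65 and 0.43 on the log2 scale. The median of the list was −0.68, or −0.55 after median-ratio scaling, when 4 of the 8 fell. It was −1.0 without and −0.37 with the Atm lesion. Leaving out WT replicates 1 or 2, Sf3b1 MT replicate 2 or DM replicate 1 left 5 members.

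Inhibitory receptors and phosphatases of B cells fell in 6 of 19 cases, against 11.5% of all genes. Fcgr2b, the inhibitory receptor for IgG, measured 69.5, 69.0 and 54.6 TPM in Sf3b1 MT and 58.2, 48.4 and 78.0 TPM in DM, against 158, 190.2 and 182 TPM in WT and 84.9 to 141 TPM in Atm MT. The sides did not overlap, and the difference was −1.09 ± 0.15 (adjusted p = 0.00522). Ptpn22, a tyrosine phosphatase that dampens antigen-receptor signalling, measured 15.7, 18.7 and 19.3 TPM in Sf3b1 MT and 17.3, 22.0 and 25.4 TPM in DM, against 59.2, 53.2 and 46.1 TPM in WT and 26.1 to 101 TPM in Atm MT. Its highest library with the lesion was just under its lowest without, and the difference was −1.38 ± 0.25 (adjusted p = 0.00986). Both passed in all 15 omissions. Fcrl5, Siglecg, Btla and Cd72 made up the rest, with differences of −0.63 to −1.0. The median over the list was −0.30, or −0.13 after scaling, when 3 fell, and it was −0.01 without and −0.46 with the Atm lesion. The count was 3 without DM replicate 1 or DM replicate 3.

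In the activating side of B-cell receptor signalling all 34 tested members of the receptor complex and its cascade were below 0, 8 fell, and the median was −0.35, or −0.15 after scaling, when 1 fell. Over all genes 75.9% were below 0 and 11.5% fell. With the GC trend removed 1 member fell, and with the erythroid covariate 0. Malt1, the protease that links the receptor to NF-kB, measured 40.3, 29.9 and 38.6 TPM in Sf3b1 MT and 36.8, 19.8 and 34.7 TPM in DM, against 58.1, 68.6 and 52.4 TPM in WT and 50.1 to 85.1 TPM in Atm MT. The sides did not overlap (−0.89 ± 0.16, adjusted p = 0.0102). Blnk, the adaptor below the receptor kinases, fell from 106 ± 15.6 to 75.7 ± 10.6 TPM (−0.51 ± 0.11, adjusted p = 0.0138), a call lost without DM replicate 3 (adjusted p = 0.0507). Ptprc (CD45), Lyn, Bank1, Sos1 and Dapp1 fell by 0.42 to 0.86. Omitting DM replicate 3 left 1 of the 8, omitting Sf3b1 MT replicate 2 left 2, omitting DM replicate 1 left 3 and omitting WT replicate 2 left 5. The mean of the B-cell marker list itself moved in the same direction (2 of 12 fell, among them Bank1, median −0.28, −0.03 without and −0.51 with the Atm lesion), and its part in these falls was not tested. Bank1 passed in 8 of the 15 omissions.

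Among innate sensors 4 of 18 fell: Tlr7, a sensor of single-stranded RNA (19.1 ± 5.06 to 9.23 ± 3.58 TPM, −1.02 ± 0.22, adjusted p = 0.0140), Tlr1 (33.8 ± 9.53 to 18.1 ± 7.28, −0.97 ± 0.23, adjusted p = 0.0183), Tlr4, the lipopolysaccharide receptor, and Ly96, its coreceptor MD-2. The median was −0.34, or −0.14 after scaling, when 2 fell and 1 rose. Over all genes 11.5% fell and the median was −0.16. The count of sensors that fell was 2 without Sf3b1 MT replicate 2, 1 without DM replicate 1 and 0 without DM replicate 3. Without DM replicate 3, Tlr7 was at −0.87 (adjusted p = 0.0542).

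Transcription factors of the B lineage did not share in the falls at the threshold, while 11.5% of all genes fell. Of 24 tested none passed although 23 were below 0 (median −0.23, −0.03 after scaling), and the smallest adjusted p were those of Ikzf3 (−0.51 ± 0.17, adjusted p = 0.0615) and Bhlhe41 (−0.89 ± 0.30, adjusted p = 0.0615). Of 15 genes of MHC class II presentation none passed either (median −0.13, 0.07 after scaling). Receptors of follicular and marginal zone homing fell in 2 of 22 cases, S1pr1 and Itgb1 (median −0.16, 0.04 after scaling; 0 without WT replicate 2, Sf3b1 MT replicate 2, Atm MT replicate 4, DM replicate 1 or DM replicate 3, and 1 without Sf3b1 MT replicates 1 or 3, WT replicate 3 or Atm MT replicates 1, 2 or 6), and among receptors for BAFF and APRIL and plasma cell genes 1 of 12 fell, the BAFF receptor Tnfrsf13c (79.8 ± 13.8 to 50.7 ± 16.1 TPM, −0.73 ± 0.18, adjusted p = 0.0200). In the B-1 and leukaemic list 2 of 14 fell, Ptpn22 and the apoptosis inhibitor Bcl2 (19.4 ± 3.70 to 12.5 ± 3.17 TPM, −0.64 ± 0.16, adjusted p = 0.0234). A single gene fell in each of the lists of the NF-kB pathway (Birc2, 1 of 26), Notch, Wnt and TGF-beta signalling (Dvl1, 1 of 24), the MS4A family (Ms4a4c, 1 of 10), the BCL2 family (Bcl2, 1 of 17) and senescence and cell cycle inhibitors (Rb1, 1 of 15). The B-1 and leukaemic count was 1 without Sf3b1 MT replicate 2, DM replicate 1 or DM replicate 3 and 5 without Atm MT replicate 5 or Atm MT replicate 6. Bcl2 lost its call without Sf3b1 MT replicate 2, DM replicate 1 or DM replicate 3, Tnfrsf13c without DM replicate 1 or DM replicate 3, Birc2 and Rb1 without DM replicate 3, and Dvl1 passed in 2 of 15 omissions.

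Genes of protein synthesis were counted by kind, where 11.5% of all genes fell and the median of all genes was −0.16. Of 31 tested genes of Myc and ribosome biogenesis 6 fell, with a median of −0.24 (−0.05 after scaling, when 1 fell and 1 rose). They included Dkc1, the pseudouridine synthase of small nucleolar particles (28.0 ± 5.43 to 17.1 ± 1.72 TPM, −0.66 ± 0.13, adjusted p = 0.0138), Npm1, a nucleolar chaperone (374 ± 73.4 to 174 ± 83.4, −1.18 ± 0.25, adjusted p = 0.0142), and Ncl, nucleolin (130.1 ± 33.1 to 72.2 ± 16.2, −0.82 ± 0.19, adjusted p = 0.0180). The count was 3 without Sf3b1 MT replicate 2 or DM replicate 1 and 2 without DM replicate 3. Translation factors fell in 6 of 28 cases, with a median of −0.17 (0.04 after scaling, when 2 fell). Eif4a2, a helicase of translation initiation and the largest named fall, measured 71.3, 11.8 and 49.8 TPM in Sf3b1 MT and 31.2, 17.8 and 67.0 TPM in DM, against 84.2, 87.8 and 60.5 TPM in WT and 76.6 to 206 TPM in Atm MT (−1.58 ± 0.36, adjusted p = 0.0165). Its spread within Sf3b1 MT was wide, and without DM replicate 3 it did not pass (−1.30, adjusted p = 0.0623). Eif5 fell from 87.8 ± 21.8 to 48.4 ± 9.86 TPM without overlap (−0.79 ± 0.16, adjusted p = 0.0138), and Pdcd4, an inhibitor of eIF4A, from 53.3 ± 17.1 to 23.7 ± 5.96 TPM (−1.05 ± 0.22, adjusted p = 0.0140). The translation count was 1 without DM replicate 3. None of 77 cytosolic ribosomal protein genes passed, and their median was 0.04, or 0.25 after scaling, when 3 rose.

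Chaperones of the endoplasmic reticulum and the unfolded protein response fell in 5 of 24 cases (median −0.23, −0.02 after scaling, when none fell), namely Pdia3, Hsp90b1, Syvn1, Hspa5 and Canx. Of all genes 11.5% fell. Hspa5, the main chaperone BiP, measured 167, 133 and 197 TPM in Sf3b1 MT against 418, 390.1 and 205 TPM in WT, but 338, 207 and 339 TPM in DM against 268 to 462 TPM in Atm MT (−0.62 ± 0.19, adjusted p = 0.0455). The list median was −0.44 without and −0.06 with the Atm lesion, a gap that was not tested. The count was 0 without DM replicate 3, 1 without Sf3b1 MT replicate 2 or DM replicate 1, 2 without WT replicates 1 or 2 or Atm MT replicate 4, and 3 without Sf3b1 MT replicate 3 or Atm MT replicates 3 or 6. Oxidative phosphorylation (1 of 48 fell, Ndufs1), interferon-stimulated genes (1 of 32 fell, Gbp3, and 1 rose, Isg20), immediate early genes (0 of 28) and replication-dependent histones (0 of 18) had medians of −0.04 to 0.08, and of 0.14 to 0.19 after scaling. Ndufs1 passed in 6, Gbp3 in 14 and Isg20 in 11 of the 15 omissions.

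Of 26 tested p53 targets 4 fell, and of 29 genes of DNA break signalling and repair 3 fell, shares near the 11.5% of all genes. Mdm2, the ubiquitin ligase that limits p53, measured 8.82, 9.06 and 9.96 TPM in Sf3b1 MT and 6.2, 6.2 and 6.71 TPM in DM, against 20.2, 18.4 and 12.5 TPM in WT and 9.22 to 15.8 TPM in Atm MT (−0.82 ± 0.14, adjusted p = 0.00829). The other targets were Polk, a translesion polymerase, Ccng1, cyclin G1, and Rrm2b, a subunit of ribonucleotide reductase. The list median was −0.24, or −0.08 after scaling, when 2 fell, and the count was 2 without Sf3b1 MT replicate 2 or DM replicate 3. The 3 repair genes were Atr, the kinase of stalled replication forks (7.84 ± 3.01 to 3.94 ± 1.46 TPM, −0.80 ± 0.23, adjusted p = 0.0334), Dclre1c, the nuclease Artemis (−0.81 ± 0.19, adjusted p = 0.0189), and Xrcc4 (−0.59 ± 0.17, adjusted p = 0.0323). The median was −0.23, or −0.11 after scaling. The count was 0 without DM replicate 1 or DM replicate 3, 1 without WT replicates 1 or 2, Sf3b1 MT replicate 2 or Atm MT replicate 4, 5 without Atm MT replicate 5 and 7 without Sf3b1 MT replicate 1.

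**Figure D3:**
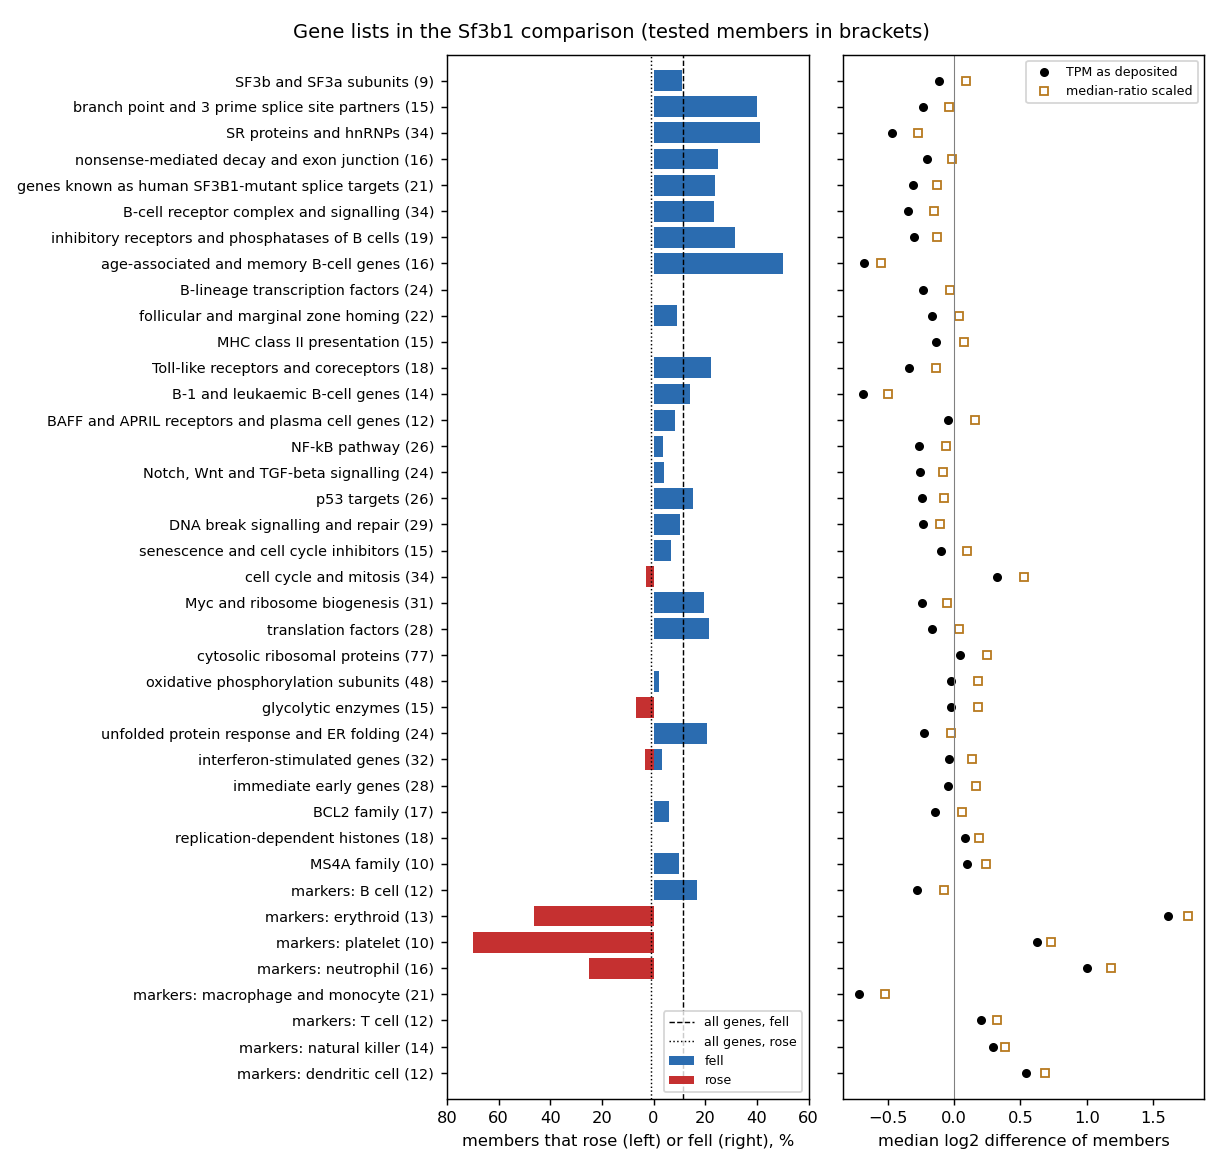
For each gene list shown (tested members in brackets), the left panel shows the share of members that fell (bars to the right) or rose (bars to the left), with dashed and dotted lines for the shares over all genes (11.5% fell, 0.990% rose), and the right panel the median log2 difference on the deposited scale and after median-ratio scaling. The age-associated and memory, SR protein and hnRNP, and branch point lists have the largest shares of falls, the markers of erythroid cells and platelets have the largest shares of rises, and the medians of several lists cross 0 on scaling. The lists and members were chosen with earlier results of these data known.

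The remaining genes among the largest falls, Ms4a4c and Luc7l3 included, were varied. Nid1, nidogen-1 of basement membranes, measured 1.21, 1.72 and 1.58 TPM in Sf3b1 MT and 1.52, 2.01 and 2.66 TPM in DM, against 3.11, 6.44 and 6.09 TPM in WT and 4.56 to 12.0 TPM in Atm MT, with no overlap (−1.40 ± 0.20, adjusted p = 0.00543). Gbp8, a guanylate-binding protein, fell without overlap as well (7.90 ± 2.23 to 2.70 ± 0.976 TPM, −1.22 ± 0.18, adjusted p = 0.00791). Ms4a4c, a membrane protein of the family of CD20, fell from 151 ± 42.6 to 64.8 ± 19.4 TPM (−1.24 ± 0.22, adjusted p = 0.00969). These 3 passed in all 15 omissions. Rn7sk, the 7SK RNA that holds the elongation factor P-TEFb inactive, fell from 739 ± 326 to 265 ± 71.5 TPM (−1.42 ± 0.30, adjusted p = 0.0140), a call lost without DM replicate 3 (adjusted p = 0.0504). 7SK itself carries no poly(A) tail. Leng8 and Ccnl2 (cyclin L2, a splicing-associated cyclin) fell by 1.36 and 1.24 and lost their calls without DM replicate 1 (adjusted p = 0.0555 and 0.0528) or DM replicate 3 (adjusted p = 0.0671 and 0.0642), and Ankrd16 (−1.23) lost its call without DM replicate 3 (adjusted p = 0.0565). H2-Q7 (−1.28 ± 0.33, adjusted p = 0.0241) belongs to a cluster of near-identical class I genes, so its reads may be split or shared with its copies. The remaining named falls, Fah, Samd9l and Luc7l3, passed in 3, 9 and 10 of the 15 omissions.

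The rises were led by genes of red-cell precursors. Of the 15 largest rises by the naming rule, Aqp1, Slc4a1, Rhd, Car2, Klf1 and Gata1 are textbook genes of the erythroid lineage, and the others included Cldn13, Aldh1a1, Gstm5, Ces2g, Slc38a5, Pklr, Tspan33 and Mgst3. Slc4a1, the anion exchanger band 3 of red cells, measured 1.35, 32.4 and 22.8 TPM in Sf3b1 MT and 22.4, 61.3 and 6.80 TPM in DM, against 2.96, 9.11 and 1.15 TPM in WT and 0.0700 to 6.49 TPM in Atm MT. Sf3b1 MT replicate 1 lay inside the range of WT, so the sides overlapped (2.53 ± 0.66, adjusted p = 0.0258). Aqp1, a water channel of the red-cell membrane, measured 3.03, 69.6 and 34.6 TPM in Sf3b1 MT and 43.7, 179 and 22.6 TPM in DM, against 8.6, 26.3 and 5.44 TPM in WT and 0.250 to 4.37 TPM in Atm MT (3.02 ± 0.75, adjusted p = 0.0230). The differences were 0.86 without and 4.64 with the Atm lesion for Aqp1, and 1.48 and 3.32 for Slc4a1. Both calls, and that of Cldn13 (2.68 ± 0.65, adjusted p = 0.0206), were lost without Sf3b1 MT replicate 2 (adjusted p = 0.0543 for Aqp1, 0.0599 for Slc4a1 and 0.0517 for Cldn13), without DM replicate 1 (0.0606, 0.0662 and 0.0548) or without DM replicate 3 (0.0765, 0.0875 and 0.0710). Mgst3, a glutathione transferase, passed in all 15 omissions (4.84 ± 2.11 to 21.5 ± 17.2 TPM, 1.68 ± 0.36, adjusted p = 0.0144).

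As lists, 6 of 13 tested erythroid markers rose (Slc4a1, Ermap, Klf1, Rhag, Car2 and Hemgn) and all 13 were above 0, with a median of 1.61, which was 0.56 without and 2.46 with the Atm lesion. Of all genes 0.990% rose. The erythroid count ranged from 0 to 9 over the 15 omissions and was 0 without Sf3b1 MT replicate 2, DM replicate 1 or DM replicate 3, 1 without WT replicates 1 or 3, Sf3b1 MT replicate 3 or Atm MT replicates 1, 2, 4 or 6, 2 without DM replicate 6 and 3 without Atm MT replicate 5. Platelet markers rose in 7 of 10 cases at low levels, with a median of 0.62. Tubb1, the platelet tubulin, measured 7.15, 4.80 and 8.46 TPM in Sf3b1 MT and 1.90, 2.43 and 2.82 TPM in DM, against 1.45, 3.16 and 4.0 TPM in WT and 0.0800 to 1.65 TPM in Atm MT (1.06 ± 0.21, adjusted p = 0.0138), so each group with the lesion was above its own control while DM lay within the range of WT. The platelet count was 3 without DM replicate 1 and 2 without DM replicate 3. Neutrophil markers rose in 4 of 16 cases, the granule proteases Elane, Ctsg, Mpo and Prtn3 (Elane 1.14 ± 1.81 to 5.48 ± 4.20 TPM, 1.59 ± 0.46, adjusted p = 0.0357), with a median of 1.0. The platelet marker mean was 1.5 to 2.54 on the log2 scale in the 6 libraries with the lesion and 0.47 to 1.92 in the 9 without, and the neutrophil mean 1.85 to 4.09 and 1.19 to 3.84. That count of neutrophil markers was 0 without any one of WT replicates 1 or 2, Sf3b1 MT replicate 2, Atm MT replicates 2, 4 or 6 or any DM replicate, 1 without Atm MT replicates 1 or 5, and 9 without WT replicate 3. Of 21 macrophage and monocyte, 12 T cell, 14 natural killer and 12 dendritic cell markers none passed. The macrophage median was −0.71, and 0.20 once Atm MT replicates 1 to 4 were left out.

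Among the other lists few genes rose, against 0.990% of all genes. In the cell cycle and mitosis list 1 of 34 rose, Ccnd3, cyclin D3 (14.5 ± 7.11 to 33.0 ± 18.6 TPM, 1.06 ± 0.33, adjusted p = 0.0452), which passed in 2 of 15 omissions. The list median was 0.32, with −0.03 without and 0.53 with the Atm lesion, and −0.15 when the erythroid marker mean was a covariate. Pfkm, the muscle-type phosphofructokinase, rose among 15 glycolytic enzymes (1.33 ± 0.38, adjusted p = 0.0348) and passed in 7 of 15 omissions. Its levels were low, at 0.61, 5.42 and 2.86 TPM in Sf3b1 MT and 3.16, 12.65 and 1.41 TPM in DM. In WT it measured 0.94, 2.71 and 0.53 TPM, and in Atm MT 0 to 0.8 TPM. With the erythroid marker mean as a covariate 0 glycolytic enzymes rose.

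Proximal promoters of the genes that passed were searched for 6 short motifs in RefSeq sequence of GRCm38.p6, from 250 bases before to 50 bases after the start, on both strands. The motifs were chosen after the expression values had been seen. The letters AGATAA, bound by GATA factors, were in the window of 14 of 80 genes that rose (17.5%), 54 of 933 that fell (5.79%) and 515 of 7776 genes tested (6.62%). The others were CCACACCC (2 of 80 rises, 3.11% of falls, 3.94% of all), GGAAGT of ETS factors (20.0%, 31.6% and 30.4%), the kappaB motif of NF-kB (0 of 80, 0.107% and 0.244%), TGACGTCA of cyclic AMP response elements (0 of 80, 3.32% and 3.31%) and CACGTG, the E-box (11.25%, 9.54% and 10.5%). No pair of these motifs was screened for overlap. A match is only the presence of these letters. Of the named rises, 11 had a promoter in the table, and 3 whose 250 bases before the start hold a match are printed to show where it lies, with AGATAA or its reverse complement TTATCT in capitals. Ces2g encodes a carboxylesterase (chr8:104961468-104961717, plus strand), Pklr the pyruvate kinase of liver and red cells (chr3:89135892-89136141, plus strand) and Rhd the Rh blood group protein (chr4:134864286-134864535, plus strand).
Ces2g: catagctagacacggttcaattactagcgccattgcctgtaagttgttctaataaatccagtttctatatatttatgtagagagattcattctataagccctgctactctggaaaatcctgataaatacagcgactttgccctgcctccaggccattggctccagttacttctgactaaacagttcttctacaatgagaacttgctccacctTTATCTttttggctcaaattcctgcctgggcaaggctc
Pklr: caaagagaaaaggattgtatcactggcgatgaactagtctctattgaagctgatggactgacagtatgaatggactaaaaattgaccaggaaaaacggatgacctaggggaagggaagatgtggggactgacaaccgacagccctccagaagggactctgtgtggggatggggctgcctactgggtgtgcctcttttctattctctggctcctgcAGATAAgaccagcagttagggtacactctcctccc
Rhd: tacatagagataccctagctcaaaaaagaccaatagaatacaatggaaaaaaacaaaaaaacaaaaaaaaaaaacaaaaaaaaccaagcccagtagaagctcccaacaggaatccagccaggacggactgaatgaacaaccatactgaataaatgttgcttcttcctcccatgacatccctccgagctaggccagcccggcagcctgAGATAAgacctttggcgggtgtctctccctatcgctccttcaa
In all 3 the match lies close to the start. Their levels rose by 1.89 ± 0.54 (Ces2g, adjusted p = 0.0332), 1.81 ± 0.54 (Pklr, adjusted p = 0.0409) and 2.47 ± 0.65 (Rhd, adjusted p = 0.0263) on the log2 scale. Ces2g passed in 11, Pklr in 4 and Rhd in 12 of the 15 omissions.

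Falls and rises also differed in the GC content and length of their transcripts. The comparison did not use GC content, while TPM is itself scaled for gene length. The GC content of the transcript had a median of 44.3% among genes that fell, 53.3% among genes that rose and 50.1% among all tested genes with an annotation (9734 of 9898 symbols matched once in GENCODE M21). Split into 5 equal bins by GC content, 29.1% of genes in the lowest of 5 bins fell and 0.308% rose, against 4.21% and 1.49% in the highest bin. Falls were also longer, with a median transcript of 3792 bases against 2198 for rises and 3058 for all. Single libraries also varied in their levels by GC content. The median level of the lowest GC bin relative to the highest, each gene set against its mean over libraries, ran from −0.71 (Sf3b1 MT replicate 2) to 0.04 in the 6 libraries with the Sf3b1 lesion and from −0.16 to 0.51 (Atm MT replicate 6) in the 9 without. When a smooth GC trend was removed from each library, a step chosen after the data were seen, 97 genes fell and 61 rose, and 125 of these 158 were among the 1240. When length was removed as well, 223 fell and 147 rose. With the GC trend removed, 2 members of the age-associated and memory list, 1 of the inhibitory list, 1 of the Toll-like receptor list and 1 p53 target fell, and 0 of the decay, splice target, DNA repair, ribosome biogenesis, translation and unfolded protein lists. In the same setting 5 platelet markers rose and 0 erythroid or neutrophil markers. With the erythroid covariate 2 members of the age-associated and memory list and 1 of the inhibitory list fell, 0 of those other lists did, and 0 platelet, neutrophil or erythroid markers rose.

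**Figure D4:**
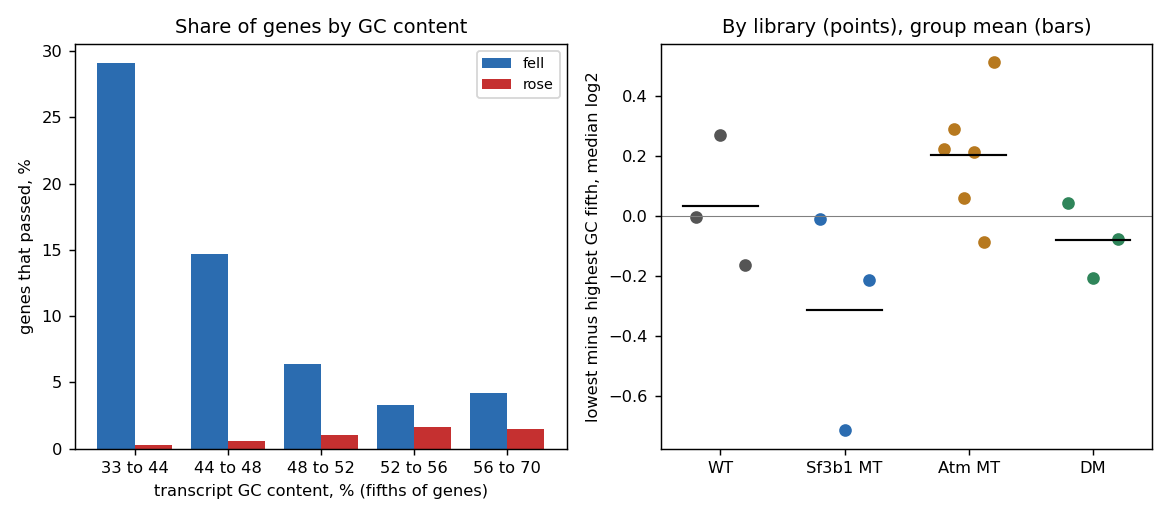
The left panel shows the share of genes that fell or rose in each of 5 bins of transcript GC content, and the right panel, per library, the median log2 level of the lowest minus the highest GC bin (points) with the group mean (bars). The share that fell drops from 29.1% in the lowest of 5 bins to 4.21% in the highest, and Sf3b1 MT replicate 2 (−0.71) and Atm MT replicate 6 (0.51) lie at the ends of the range of libraries.

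The number of genes that passed depended strongly on a few libraries and settings. All 1240 kept their sign in each of the 15 omissions, but this was largely fixed in advance, since they were chosen in the same libraries. Removing the GC trend changed the sign of some (1200 of 1221 kept it). In place of 1240, 140 genes passed without DM replicate 3 (138 of them among the 1240), 368 without DM replicate 1 (364), 410 without Sf3b1 MT replicate 2 (407), 673 without Atm MT replicate 4 (670), 703 without WT replicate 2 (677) and 758 without WT replicate 1 (741). With the erythroid marker mean of each library as a covariate 5 genes passed, all falls: Gimap4, a GTPase of lymphocytes (−0.91, adjusted p = 0.0499), Cd86 (−0.92), Fcrl5 (−1.22), Ahsa2 (−1.75) and Gkap1 (−0.95). Without Atm MT replicates 1 to 4, the libraries with high macrophage markers, 9 passed, all falls, among them Gimap4, Cd86, Fcgr2b, Ms4a4c and Nid1. In both of these settings all 1240 genes kept their sign, which is no independent check, since the same libraries had chosen them. The fit without Atm MT replicates 1 to 4 had fewer libraries. By limma 3096 of its genes had an unadjusted p under 0.05, against 2981 with all 15 libraries and 1344 with the erythroid covariate. The median of the falls of the main fit was −0.63 without those libraries, against −0.61 with all 15. With the macrophage marker mean as a covariate 1187 genes passed, 1021 of them among the 1240. Gimap4 had, with Cd86, the smallest adjusted p of the comparison (−1.15 ± 0.14, adjusted p = 0.00192, 248.6 TPM without the lesion and 117 TPM with it).

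**Figure D5:**
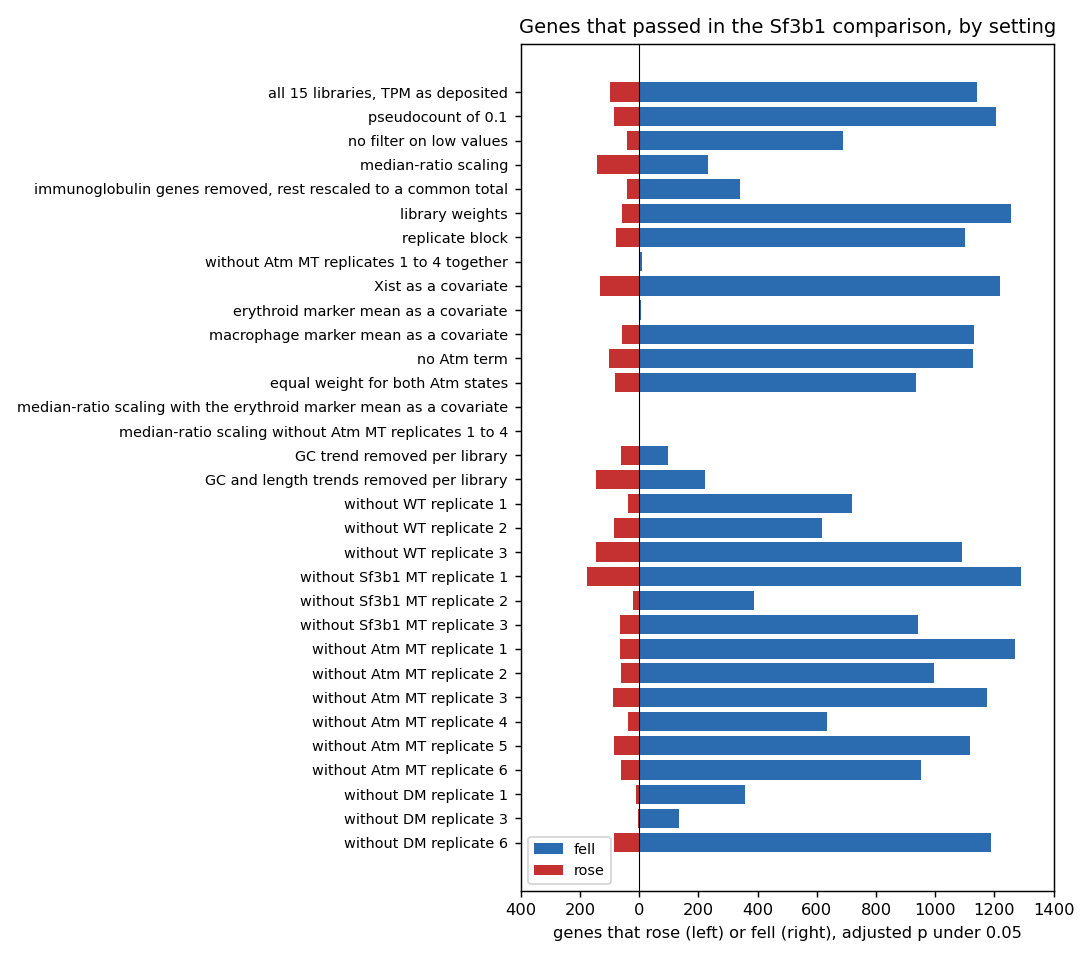
Genes that fell (bars to the right) or rose (bars to the left) at an adjusted p under 0.05 in each setting of the Sf3b1 comparison, from all 15 libraries on the deposited scale (1142 fell, 98 rose) to the omission of each library in turn. The bars of falls shorten most with median-ratio scaling, rescaling to a common total, the GC settings and the erythroid covariate. The same holds for the omission of Atm MT replicates 1 to 4, of DM replicate 1 or of DM replicate 3. Among these settings the bar of rises lengthens with median-ratio scaling alone (141) and with GC and length trends removed (147).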

How the data were processed

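Per the labels' protocols, a PrepEase kit purified the RNA and NEBNext Ultra reagents made poly(A) libraries. STAR and mm10 are named in the submitters' processing notes, and the quantifier and gene annotation are not given in the sources used here. The authors deposited TPM values with 2 decimals for 18554 gene symbols in 17 libraries, of which 3711 were at 0 in every library. The listed symbols hold 43.1% to 59.7% of each library's full total, and read depth is unknown, so no counting error can be given.

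From the deposited TPM, log2(TPM + 1) was computed for the 9898 genes with TPM of at least 1 in at least 2 of the 17 libraries. The 15 libraries other than DM-CLL were fitted with limma 3.58.1 in R 4.3.3 (lmFit, eBayes with an intensity trend), with the Sf3b1 and Atm lesions as additive terms, 2-sided tests and Benjamini-Hochberg adjustment. The additive difference weighs the state without the Atm lesion by 42.9% and the state with it by 57.1%. The interaction was fitted in a second model. Both fits were run on simulated data with independent noise for each gene, without the erythroid and GC differences between the libraries here. That run therefore does not show how large an interaction could be detected in these libraries. Named genes are the 15 falls and 15 rises of largest size with a mean TPM of at least 5 on the higher side and the same sign in both Atm states (predicted genes, pseudogenes, antigen receptor segments, mitochondrial and sex-linked marker genes left out), up to 3 genes of smallest p in each of 41 lists, the targeted genes and the 3 smallest interaction p. Other genes were named after their values were seen, and a few genes and lists are not reported here. The members and lists were chosen with earlier results of these data known. Median-ratio scaling used 7769 genes. Transcript GC content, length and positions came from GENCODE M21 (GRCm38), and promoters from RefSeq (GRCm38.p6). In addition, 16 other settings and 15 omissions of 1 library were run. Tables were handled in pandas 2.3.3 and numpy 2.4.6 under Python 3.11.15, and plots drawn in matplotlib 3.10.9.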

Additional observations from a re-analysis of the deposited data

Results flagged for a closer look

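In 4 genes 1 of the 6 Atm MT libraries lay far from the other 5, by Dixon's gap test over 32 genes, in which chance picks out about 1 in 20. Luc7l3, a U1-associated splicing factor, measured 40.6 TPM in Atm MT replicate 6 against 9.04 to 16.3 TPM in the others. Atm MT replicate 3 stood out for 3 erythroid genes, with 6.49 TPM of Slc4a1 against 0.0700 to 2.36 TPM, 2.43 TPM of Klf1 against 0.0400 to 0.900 TPM, and 1.94 TPM of Gata1 against 0.0200 to 0.590 TPM.

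In the 2 DM-CLL libraries, which the comparison does not use, 3 of the 15 named falls of largest size were above all 9 libraries without the Sf3b1 lesion. Cd80 averaged 30.7 TPM in DM-CLL, where the 9 libraries ran from 5.01 to 22.1 TPM. Nid1 averaged 34.1 TPM against 3.11 to 12.0 TPM, and Ptpn22 averaged 165 TPM against 26.1 to 101 TPM. Other genes that fell were not searched as a whole, and some of them were also above all 9, such as Fcgr2b at 262 and 263 TPM against a highest value of 190.2 TPM. These differences were not tested.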

How the results depend on the processing

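The count of 1240 genes moved by over 1.5 times in 9 settings: 728 with no filter on low values, 375 after median-ratio scaling, 382 with the listed symbols rescaled to a common total after removal of immunoglobulin variable genes (only 2 were listed), 9 without Atm MT replicates 1 to 4 and 5 with the erythroid marker mean as a covariate, and, in settings chosen after the data were seen, 0 with median-ratio scaling and the erythroid covariate (limma, 1317 at an unadjusted p under 0.05), 0 with median-ratio scaling without Atm MT replicates 1 to 4 (1979 unadjusted), 158 with the GC trend removed and 370 with GC and length trends removed. The cause was not tested. Omissions of 1 library gave 140 to 1466 genes. All 1240 kept their sign in each of these settings and omissions except median-ratio scaling without Atm MT replicates 1 to 4 (1239 of 1240), the GC trend (1200 of 1221 with an annotation) and the GC and length trends (1196 of 1221). Rescaling to a common total without the 2 immunoglobulin genes left 1239 genes to compare, all with the same sign. Since the same libraries had chosen these genes, kept signs are no independent check. The interaction count of 0 became 5 with no filter, 1 without Atm MT replicates 1 to 4 and 2 with median-ratio scaling without those libraries, and 0 to 1 in omissions (1 without WT replicate 2, WT replicate 3 or Atm MT replicate 6).

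Replicate numbers did not pair the libraries. The deviations of 16 same-number pairs correlated at −0.363 to 0.364 with a median of 0.0127, 5 were over 0.1, and 4 libraries correlated best with their own number. With the replicate block 1179 genes passed, 966 of them among the 1240.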

Other observations

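Gene families by symbol prefix were counted after the values had been seen, and all 17 prefixes examined are given. The zinc-finger Zfp genes, most of them encoding DNA-binding repressors, had the most falls, 68 of 238 tested (28.6%, with 11.5% of all genes as background). Their median was −0.37, and 21 fell after median-ratio scaling and 6 after the GC trend was removed. Of 8 Gimap genes, GTPases of lymphocytes, 5 fell (Gimap4, Gimap8, Gimap3, Gimap7 and Gimap9, median −0.55), with 2 after median-ratio scaling and 1 after the GC trend was removed. Of 50 Ddx and Dhx helicase genes 17 fell (median −0.26), with 2 after scaling and 2 after the GC step. Falls were 8 of 28 Rbm, 5 of 10 Srsf, 5 of 17 Zc3h, 2 of 7 Gbp, 2 of 7 Cct, 1 of 4 Fcrl, 1 of 6 Lgals and 8 of 60 Atp genes. They were 3 of 47 proteasome Psm genes, 2 of 75 mitochondrial ribosome genes, 3 of 47 Ppp genes, 1 of 3 nuclear noncoding RNAs, 0 of 3 snoRNA hosts and 0 of 8 Slfn genes. No member of the 17 families rose on the deposited scale.

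The gene with the smallest interaction p, Fzd6, had its high values in WT alone, at 12.8, 4.25 and 6.51 TPM. It measured 1.22, 0.870 and 0.750 TPM in Sf3b1 MT, 0.0600 to 0.730 TPM in Atm MT and 0.460, 0.460 and 0.390 TPM in DM. The interaction did not pass (adjusted p = 0.365 by limma).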
